A study of Mus musculus with 12 samples.

Results

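The Iroquois homeobox genes Irx1 to Irx6 were followed across the 3 zones of the mouse growth plate. The members were taken by symbol from the probe annotation of the array, and all 6 genes were found, on 9 probes among 41174 probes and as 6 of 27173 tested gene features. The members were chosen by the signals of these samples, since Irx5 has the largest rise toward the hypertrophic zone, so every Irx5 value and every Irx value in hypertrophic against proliferative is a description without a test. All samples came from femoral growth plate cartilage of Swiss White mice aged 14 days, with no treatment or mutation named, and the zones were dissected from frozen sections. The groups were the proliferative, prehypertrophic and hypertrophic zones with 4 samples each, and the labels do not say whether these came from separate animals, so that the errors may be technical. The RNA was amplified, labelled with Cy3 or Cy5 and hybridised in pairs of different zones on 6 two-colour arrays, so that each pair of zones was on 2 arrays with the dyes exchanged.

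Iroquois genes encode homeodomain transcription factors of the TALE class. In Drosophila the Iroquois genes set up territories of the eye and body wall and switch on proneural genes, and in mammals they lie in a pair of gene clusters. In mice Irx3 and Irx5 act together in the patterning of the limb and the heart, and both have been studied in hypertrophic chondrocytes, where they favour a bone-forming over a fat-forming fate of the descendants. In humans recessive mutations of IRX5 cause Hamamy syndrome, with defects of the face and the bones.

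In these samples Irx1, Irx2 and Irx4 lie on chromosome 13, and Irx3, Irx5 and Irx6 on chromosome 8, in that order in the RefSeq annotation of GRCm38.p6. The promoter window of 300 bases, from 250 before to 50 after the start, was found in the RefSeq table (GRCm38.p6) for 3 of the 6 genes: Irx2, Irx3 and Irx4. They are shown because no other member had a window, and were not chosen by their changes. In the fit Irx3 rose along the zones, and Irx2 and Irx4 did not pass a test on their main probes. Capitals mark matches on either strand to the RUNX core TGTGGT, the AP-1 site TGANTCA, the GC box GGGCGG, the CCAAT box CCAAT, the TATA box TATAAA and the HIF core ACGTG.
Irx3, chr8:91801605-91801904, minus strand: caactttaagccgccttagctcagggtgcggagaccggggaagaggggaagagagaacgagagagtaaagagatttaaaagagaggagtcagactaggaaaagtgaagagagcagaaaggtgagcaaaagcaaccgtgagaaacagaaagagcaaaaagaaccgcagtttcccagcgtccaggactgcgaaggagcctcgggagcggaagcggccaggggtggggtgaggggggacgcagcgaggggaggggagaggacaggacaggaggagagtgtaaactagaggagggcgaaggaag
Irx2, chr13:72628570-72628869, plus strand: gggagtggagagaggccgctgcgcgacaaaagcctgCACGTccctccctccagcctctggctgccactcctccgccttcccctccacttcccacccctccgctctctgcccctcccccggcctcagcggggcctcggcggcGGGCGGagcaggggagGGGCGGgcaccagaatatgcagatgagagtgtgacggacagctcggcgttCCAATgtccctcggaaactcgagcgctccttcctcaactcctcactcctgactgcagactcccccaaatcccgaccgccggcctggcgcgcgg
Irx4, chr13:73260247-73260546, plus strand: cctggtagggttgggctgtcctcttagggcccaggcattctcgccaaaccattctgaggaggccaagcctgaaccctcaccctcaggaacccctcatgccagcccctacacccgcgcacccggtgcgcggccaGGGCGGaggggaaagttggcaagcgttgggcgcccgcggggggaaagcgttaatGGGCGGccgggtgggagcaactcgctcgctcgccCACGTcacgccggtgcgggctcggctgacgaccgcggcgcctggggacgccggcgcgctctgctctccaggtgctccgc
The Irx3 window holds 14 CpG pairs and no match to any of these motifs. The Irx2 window holds 25 CpG pairs with 2 GC boxes, 1 CCAAT box and 1 HIF core, and the Irx4 window holds 31 CpG pairs with 2 GC boxes and 1 HIF core. The median over all 32851 windows of the table was 7 CpG pairs. The GC box was in 35.7% of all windows, the CCAAT box in 37.4%, the HIF core in 19.6%, the RUNX core in 16.8%, the TATA box in 13.6% and the AP-1 site in 7.81%. These matches are letters only, and a window without a match says nothing about the factor.

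Levels are given per probe as log2 of the processed signal after loess, less the 75th percentile of the same sample, so that 0 is the level of a bright but common spot. Levels of different probes cannot be compared with each other. Changes between zones are log2 differences from 1 limma model over the 6 array ratios with a dye term, and a change passed where the Benjamini-Hochberg adjusted p over all features was under 0.05. In a bulk sample, fewer cells of a type and less RNA per cell cannot be told apart. The share of spots well above background was 92.6% to 96.2% per sample, and levels correlated at 0.958 to 0.977 within a zone and at 0.886 to 0.964 between zones. The zones carried their textbook markers in part. Alpl, the alkaline phosphatase of mineralising cartilage, rose by 4.99 ± 0.12 in prehypertrophic against proliferative samples (SE, adjusted p = 5.91e-05), with 1 prehypertrophic spot saturated. Mmp13, a collagenase of the last hypertrophic cells, rose by 5.86 ± 0.26 in hypertrophic against prehypertrophic samples (adjusted p = 0.000152). Aurkb, a kinase of dividing cells, fell by 5.76 in prehypertrophic against proliferative samples (SE 0.06, adjusted p = 3.88e-05) and rose by 4.31 ± 0.06 in hypertrophic against prehypertrophic samples (adjusted p = 3.91e-05).

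Irx5 had 1 probe with 1 spot on each array, so no second probe could be compared. Irx5 was near background in proliferative cartilage and higher in each later zone. Its level was -4.23, -5.00, -4.85 and -4.25 in the 4 proliferative samples. In the prehypertrophic samples it was 0.99, 0.95, 0.95 and 0.74. In the hypertrophic samples it was 3.06, 2.94, 2.85 and 2.88. The 3 groups did not overlap, and the SD within a zone was 0.40, 0.11 and 0.09 in that order of zones. Proliferative replicate 2, the lowest, was not well above background, so the proliferative level was measured in 3 of 4 samples. In units of the scanner, the Irx5 spot had a processed signal of 52.12 to 118 in proliferative, 3260 to 4182 in prehypertrophic and 12830 to 16830 in hypertrophic samples, and no spot was saturated.

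The log2 change of Irx5 was 5.47 ± 0.22 in prehypertrophic against proliferative samples, 2.11 ± 0.22 in hypertrophic against prehypertrophic samples and 7.59 ± 0.22 in hypertrophic against proliferative samples (SE), the last a 192-fold difference in the fit. Array 2 holds the proliferative spot that was not well above background, and without it the changes were 5.32, 1.96 and 7.28. With all arrays, the first step carried 72.1% of the log2 difference between the outer zones. Within arrays, prehypertrophic over proliferative was 5.76 with the prehypertrophic sample in Cy3 and 4.95 with it in Cy5. Hypertrophic over prehypertrophic was 1.95 and 2.04 in the same order of dyes, and hypertrophic over proliferative was 7.37 and 8.04, the last on array 2. Both dye orientations gave the same direction in each pair of zones, and the dye coefficient of Irx5 was -0.01. Irx5 ranked 1 of 27173 features in hypertrophic against proliferative, which is how it was chosen. The next were Ptgs2, an enzyme of prostaglandin synthesis, at 7.35 ± 0.37, and Aldh1a3, an enzyme of retinoic acid synthesis, at 6.59 ± 0.41. In prehypertrophic against proliferative its rank was 2.

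**Figure D1:**
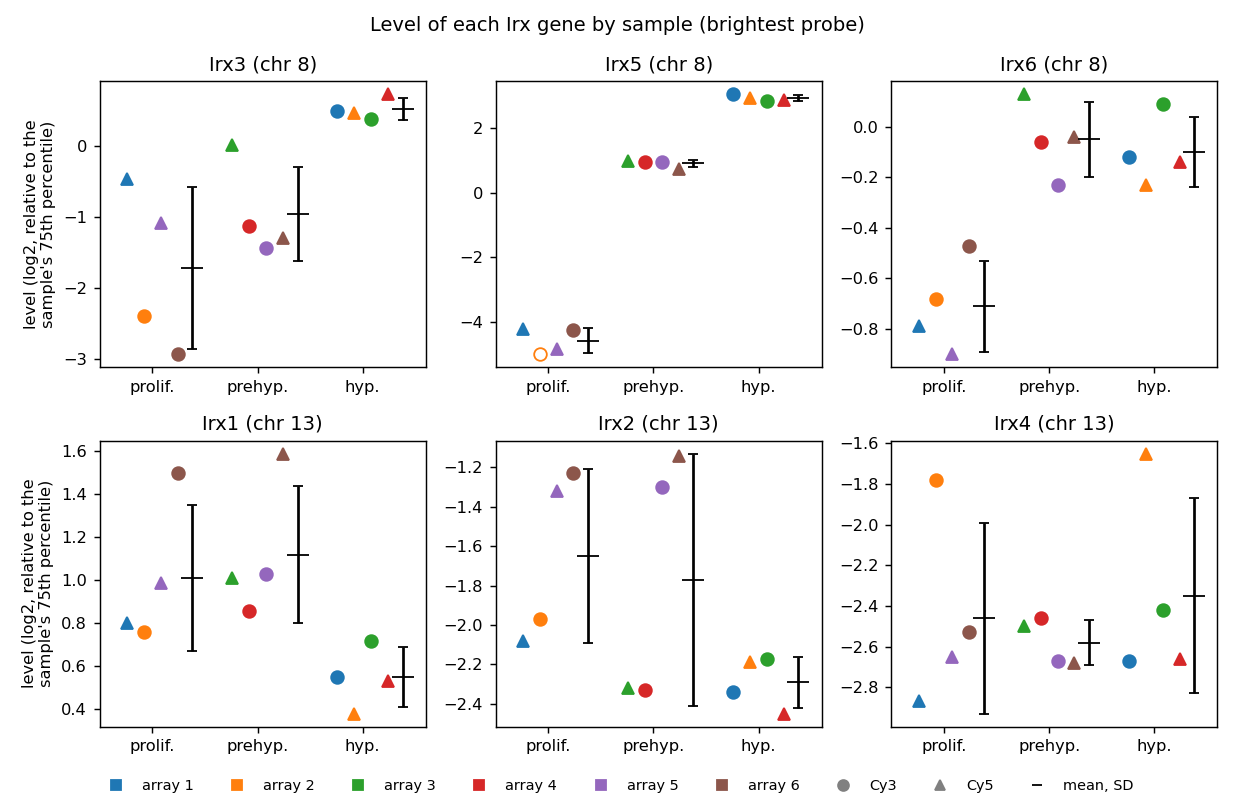
Level of each Irx gene on its brightest probe (y axis, log2 relative to the sample's 75th percentile; each panel has its own scale) in the 4 samples of each zone (x axis). Colours mark the array, circles Cy3, triangles Cy5, an open symbol a spot not well above background, and the black line and bar the mean and SD. Irx5 lies between 2.85 and 3.06 in hypertrophic samples, against -5.00 to -4.23 in proliferative samples, without overlap, while for Irx1, Irx2 and Irx4 samples that shared an array often lie together.

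Irx3 rose at both steps, by less than Irx5 and with a strong dependence on the dye. Its level was -0.46, -2.40, -1.09 and -2.93 in the proliferative samples. In the prehypertrophic samples it was 0.01, -1.13, -1.44 and -1.30. In the hypertrophic samples it was 0.49, 0.47, 0.38 and 0.73. The hypertrophic samples were all above the other 8, and the prehypertrophic and proliferative samples overlapped. Among proliferative samples both Cy5 samples (replicates 1 and 3) were above both Cy3 samples.

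Irx3 rose by 0.66 ± 0.09 in prehypertrophic against proliferative samples (1.58-fold, adjusted p = 0.00458). It rose by 1.27 ± 0.09 in hypertrophic against prehypertrophic samples (2.41-fold, adjusted p = 0.000480). Hypertrophic against proliferative was 1.93 ± 0.09, so that 34.3% of this log2 difference lay at the first step. The dye coefficient of Irx3 was 0.90 (Cy5 minus Cy3), larger in size than that of 98.3% of features. On the 2 arrays that held prehypertrophic and proliferative samples, the ratio was -0.38 with the prehypertrophic sample in Cy3 and 1.58 with it in Cy5, which are opposite directions. Hypertrophic over prehypertrophic was 0.45 and 1.96 in the same order of dyes, and hypertrophic over proliferative was 1.04 and 2.96. The model cancels a dye effect that is the same on every array; without the dye term the changes were the same in size and neither passed (adjusted p = 0.439 and 0.118). The second step thus had 1 direction in both dye orientations, and the first step did not.

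Irx6, the last gene of the chromosome 8 cluster, rose at the first step alone. Its level was -0.79, -0.68, -0.90 and -0.47 in proliferative samples, 0.13, -0.06, -0.23 and -0.04 in prehypertrophic samples and -0.12, -0.23, 0.09 and -0.14 in hypertrophic samples. The proliferative samples were all below the other 8, and the prehypertrophic and hypertrophic samples overlapped. Irx6 rose by 0.54 ± 0.05 in prehypertrophic against proliferative samples (1.46-fold, adjusted p = 0.00132). Its change in hypertrophic against prehypertrophic samples was 0.07 ± 0.05 and did not pass (adjusted p = 0.271); without array 3 it was 0.14 and passed (adjusted p = 0.0383). Hypertrophic against proliferative was 0.62 ± 0.05. The array ratios of prehypertrophic over proliferative were 0.63 and 0.39, the same direction in both dye orientations.

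Among the chromosome 13 genes, Irx1 fell slightly at the second step. In mice Irx1 is expressed in the forming digits and joints. On its brighter probe the level was 0.80, 0.76, 0.99 and 1.50 in proliferative samples, 1.01, 0.86, 1.03 and 1.59 in prehypertrophic samples and 0.55, 0.38, 0.72 and 0.53 in hypertrophic samples. The hypertrophic samples were all below the other 8, and the prehypertrophic and proliferative samples overlapped. Proliferative replicate 4 and prehypertrophic replicate 4, the highest of their zones, were on the same array. Irx1 fell by 0.22 in hypertrophic against prehypertrophic samples (SE 0.03, 0.856-fold, adjusted p = 0.00577). Prehypertrophic against proliferative was 0.01 ± 0.03 and did not pass (adjusted p = 0.795).

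The second Irx1 probe was dim, with processed signals of 18.05 to 92.31. It was well above background in all proliferative and prehypertrophic samples and in 2 of 4 hypertrophic samples. Both hypertrophic samples that were not well above background were in Cy3. Its change was -1.36 ± 0.43 in hypertrophic against prehypertrophic samples and did not pass (adjusted p = 0.0559 among 39906 probes), and the array ratios were -2.27 with the hypertrophic sample in Cy3 and 0.07 with it in Cy5. Both probes had a fitted change below 0 at this step, and its size differed between them.

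Irx2 had 3 probes, and they did not give 1 answer. On the brightest probe the level ran from -2.08 to -1.23 in proliferative samples, from -2.33 to -1.14 in prehypertrophic samples and from -2.45 to -2.17 in hypertrophic samples. The 4 samples on arrays 5 and 6, which paired prehypertrophic with proliferative samples, lay above the other 8, from -1.32 to -1.14. Within these arrays the ratio of prehypertrophic over proliferative was -0.02 and 0.04. Changes on this probe were -0.08 ± 0.08 in prehypertrophic against proliferative samples (adjusted p = 0.490) and 0.02 ± 0.08 in hypertrophic against prehypertrophic samples (adjusted p = 0.845). The second probe fell by 0.43 in hypertrophic against prehypertrophic samples (SE 0.03, adjusted p = 0.00281), from 5 ratios, since the spot of hypertrophic replicate 2 carried an outlier flag and its array ratio was left out. The dimmest probe gave 0.05 ± 0.07 at that step (adjusted p = 0.588). At the first step the second and the dimmest probe gave 0.00 ± 0.03 and -0.18 ± 0.07, and neither passed (adjusted p = 0.927 and 0.126). With every probe as a feature, 42.3% of 39906 passed in prehypertrophic against proliferative samples and 53.8% in hypertrophic against prehypertrophic samples.

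Irx4, which marks the ventricles of the heart, showed no change that passed. Its level ran from -2.87 to -1.78 in proliferative, from -2.68 to -2.46 in prehypertrophic and from -2.67 to -1.65 in hypertrophic samples, and the zones overlapped. Proliferative replicate 2 and hypertrophic replicate 2, the highest of their zones, shared array 2. The change was -0.01 ± 0.09 in prehypertrophic against proliferative samples (adjusted p = 0.940) and 0.15 ± 0.09 in hypertrophic against prehypertrophic samples (adjusted p = 0.207).

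**Figure D2:**
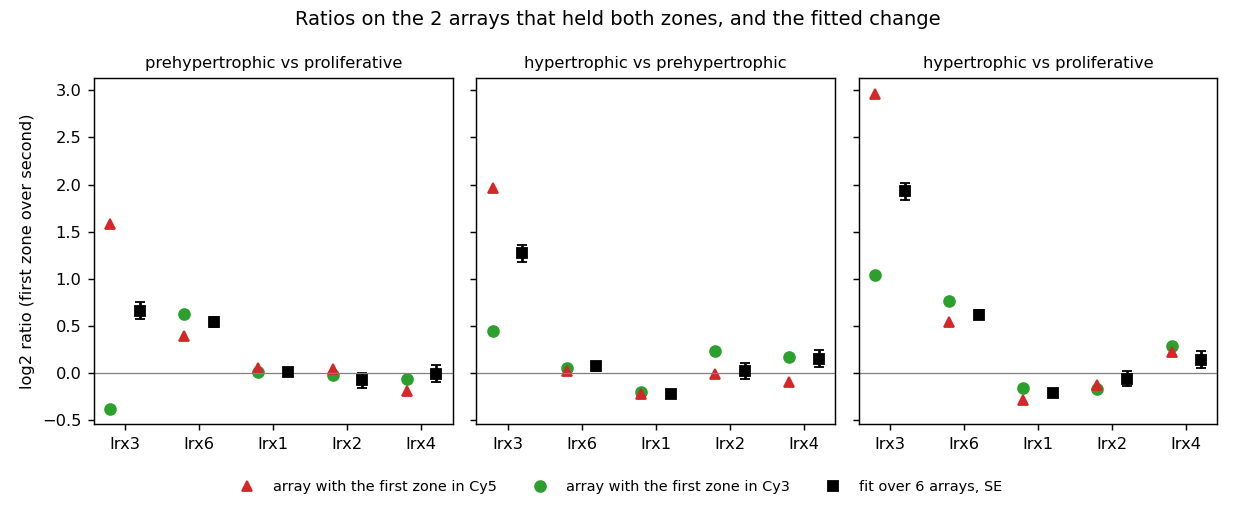
Log2 ratio of the brightest probe of 5 Irx genes (y axis) on the array with the first-named zone in Cy5 (triangles) and in Cy3 (circles), and the change fitted over all 6 arrays with its SE (squares), for each pair of zones. For Irx3 the orientations lie far apart, at 1.58 and -0.38 in prehypertrophic against proliferative, while for Irx6 they are 0.39 and 0.63.

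Of the 5 Irx genes other than Irx5, 2 rose in prehypertrophic against proliferative samples, Irx3 and Irx6, and the changes of the other 3 were between -0.08 and 0.01. Over all features 45.9% passed in this comparison, 23.4% higher and 22.5% lower. In hypertrophic against prehypertrophic samples 1 rose (Irx3) and 1 fell (Irx1) of the 5, and over all features 58.1% passed, 28.0% higher and 30.0% lower. With both directions counted, 2 of 5 members passed in each of these comparisons, near or below the share of all features. By direction, 2 of 5 rose and 0 fell in prehypertrophic against proliferative samples, so the share that rose was above 23.4%. With 5 genes such a share is coarse, and no test of the members as a set was run. In hypertrophic against proliferative 58.9% of features passed, 28.2% higher and 30.7% lower, and there the 6 changes were 7.59 for Irx5, 1.93 for Irx3, 0.62 for Irx6, 0.14 for Irx4, -0.06 for Irx2 and -0.21 for Irx1. The 3 largest belong to the chromosome 8 genes. Across the 12 samples the level of Irx5 correlated with that of Irx6 at Pearson r = 0.866 and with that of Irx3 at 0.739, and Irx1 with Irx2 at 0.801; these samples share arrays and zones, and the values are descriptions.

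By the same measure over 12 samples, the named genes most like Irx5 among 19320 compared were Smim22, Selenop, Slc25a36, Map1lc3b and Dnajb3, each at r = 0.995. Selenop encodes a secreted selenium carrier; its change was 2.99 in prehypertrophic against proliferative samples and 1.00 in hypertrophic against prehypertrophic samples. Slc25a36, a mitochondrial carrier, changed by 3.29 and 1.29 at the same steps, and Map1lc3b, a protein of autophagosomes, by 1.80 and 0.58. The genes most like Irx3 were Zfp781 at r = 0.970, Adamts5, an aggrecanase, at 0.967, Map3k14 at 0.965, and Med24 and Mtmr14 at 0.951. Adamts5 changed by 0.22 in prehypertrophic against proliferative samples and by 0.63 in hypertrophic against prehypertrophic samples, smaller than Irx3 at both. A likeness to Irx3 includes its dye pattern, since levels were not corrected for dye.

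The genes beside each cluster did not follow one course. Neighbours were the nearest annotated protein-coding genes, taken in equal number from both sides of a cluster. On chromosome 8, 11 of 12 neighbours were tested. Of these, 2 rose and 4 fell in prehypertrophic against proliferative samples, where 45.9% of all features passed. Their median change was 0.00 against 0.02 over all features. In hypertrophic against prehypertrophic samples 3 rose and 6 fell, with a median of -0.25 against -0.04, where 58.1% of all features passed. Fto, whose introns hold distant enhancers of Irx3 and Irx5 in mouse and human, fell by 0.38 at the first step (SE 0.02, adjusted p = 0.000464) and by 0.65 at the second (SE 0.02, adjusted p = 9.7e-05), while its 3 probes ran from -0.62 to 0.09 and from -0.65 to 0.34. Mmp2, a gelatinase gene next to Irx6, fell by 1.04 at the first step (SE 0.08, adjusted p = 0.000817) and by 1.47 at the second (SE 0.08, adjusted p = 0.000242). Aktip, beyond Fto, rose by 1.30 ± 0.05 at the first step (adjusted p = 0.00012), and its change at the second was -0.05 ± 0.05 (adjusted p = 0.399). Tox3 rose at the second step by 2.47 ± 0.37 in the fit (adjusted p = 0.0119), with 0 of 4 prehypertrophic samples well above background, so that the size is not measured. The genes beside the chromosome 8 cluster thus moved in both directions.

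On chromosome 13, 11 of 12 neighbours were tested, and 2 rose and 5 fell at the first step, with a median of -0.14, where 45.9% of all features passed. At the second step 4 rose and 3 fell, with a median of 0.02, where 58.1% of all features passed. Lpcat1, an enzyme of phospholipid remodelling, fell by 1.71 at the first step (SE 0.16, adjusted p = 0.00172) and rose by 1.47 ± 0.16 at the second (adjusted p = 0.00216). Med10, a subunit of Mediator, rose by 1.15 ± 0.12 at the second step (adjusted p = 0.00197). Nsun2, an RNA methyltransferase gene, fell by 0.78 and by 0.90 at the 2 steps on its brighter probe (adjusted p = 0.00015 and 9.06e-05). Its other probe gave -0.00 and -0.51. Adamts16, the listed neighbour nearest to Irx1, did not pass at either step, with 0.20 ± 0.07 and -0.21 ± 0.07 (adjusted p = 0.0763 and 0.0539). Irx3os, the annotated antisense transcript of Irx3, is no member, and its 2 probes differed at the second step: the brighter fell by 0.19 (SE 0.02, adjusted p = 0.00371) and the dimmer rose by 0.75 ± 0.06 (adjusted p = 0.000869 among probes).

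**Figure D3:**
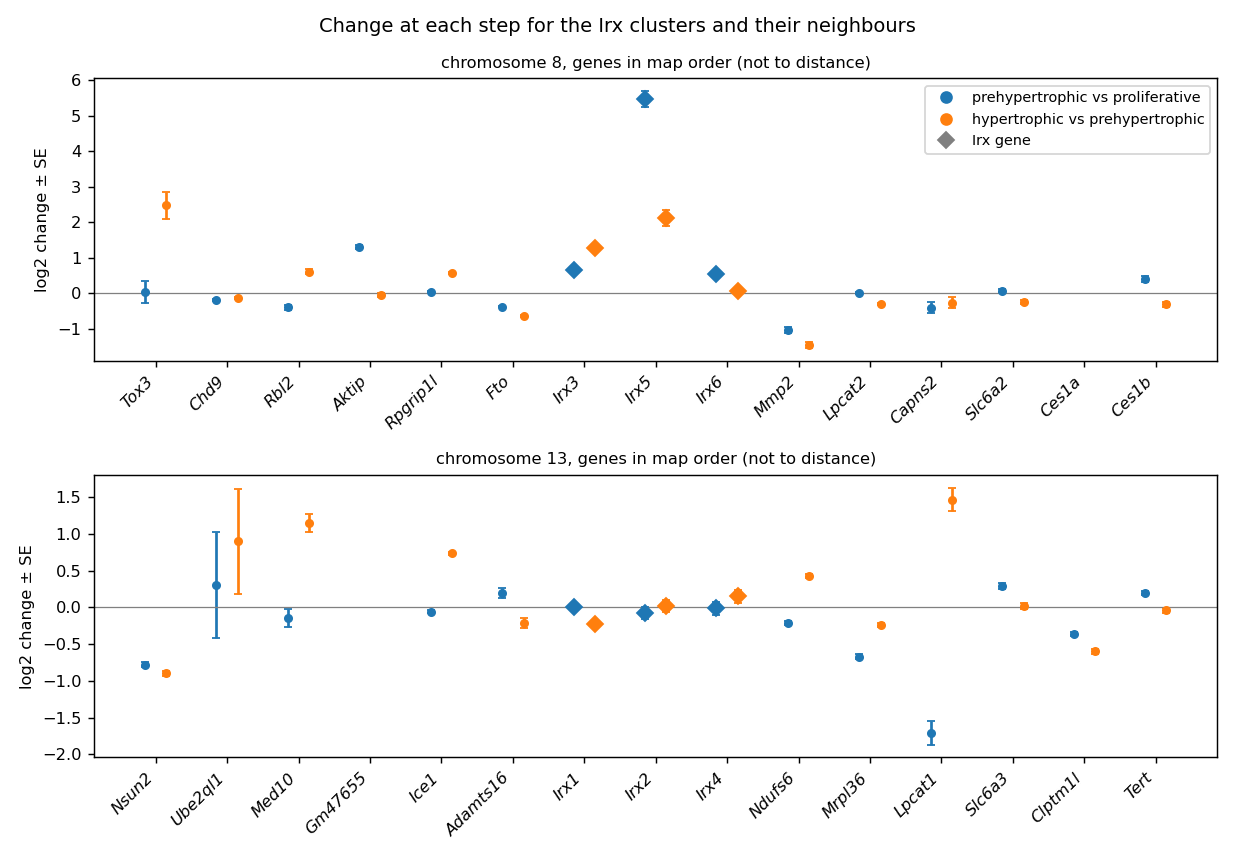
Log2 change with its SE (y axis) in prehypertrophic against proliferative (blue) and hypertrophic against prehypertrophic (orange) for the Irx genes (diamonds) and their nearest annotated neighbours (circles) in map order, not drawn to distance. The neighbours are protein-coding genes, and those without points had no named probe. Irx5, at 5.47 in the first comparison, stands above its neighbours there, and Mmp2 and Fto are below 0 in both comparisons.

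Other TALE homeobox genes include those of cofactors that bind DNA beside homeodomain proteins. Of the list 10 were tested, and Meis1 was not tested. In prehypertrophic against proliferative samples 4 fell, namely Meis2, Pbx2, Pbx3 and Tgif2, with a list median of -0.06, where 45.9% of all features passed. By limma 0 rose there, and at an unadjusted p under 0.05 there were 2 higher and 4 lower. In hypertrophic against prehypertrophic samples 3 rose and 3 fell, with a median of 0.04, where 58.1% of all features passed. Meis2 fell by 1.28 at the first step (SE 0.08, adjusted p = 0.000487) and by 1.08 at the second (SE 0.08, adjusted p = 0.000653); at the first step its 3 probes ran from -1.28 to -0.04. Mkx, the Mohawk gene of tendon and a relative of the Iroquois genes, changed by 0.06 ± 0.03 at the first step (adjusted p = 0.145) and rose by 0.96 ± 0.03 at the second (adjusted p = 6.43e-05). Pbx2 fell by 0.52 and then rose by 0.30 ± 0.06 (adjusted p = 0.00284 and 0.0121). Tgif2, a repressor of TGF-beta signalling, fell by 0.56 and then rose by 0.23 ± 0.03 (adjusted p = 0.000289 and 0.00339). In hypertrophic against proliferative samples 2 rose and 4 fell, with a median of -0.09 against -0.03 over all features, of which 58.9% passed.

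The list of partners, targets and upstream factors of Irx proteins moved in both directions, and Runx2 had no named probe. Of the 20 tested genes, 3 rose and 8 fell in prehypertrophic against proliferative samples, with a median of -0.06, where 45.9% of all features passed. In hypertrophic against prehypertrophic samples 6 rose and 7 fell, with a median of -0.04, where 58.1% of all features passed. In hypertrophic against proliferative samples 5 rose and 9 fell, with a median of -0.17, where 58.9% of all features passed. With both directions counted, 11, 13 and 14 of the 20 passed in these comparisons, somewhat above the shares over all features. More genes fell than rose in each, where 22.5%, 30.0% and 30.7% of all features fell and 23.4%, 28.0% and 28.2% rose. No test of the list as a set was run.

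TRPS1 and GATA3 are zinc finger proteins that bind IRX5. Trps1, mutated in tricho-rhino-phalangeal syndrome in humans, rose by 1.67 ± 0.05 at the first step (adjusted p = 7.3e-05) and fell by 0.85 at the second (SE 0.05, adjusted p = 0.000266), and its 3 probes had the same directions. Its spot was saturated in 1 prehypertrophic sample, which compresses a ratio. Gata3 did not pass at either step, with -0.05 ± 0.03 and -0.04 ± 0.03 (adjusted p = 0.337 and 0.389). Cxcl12, a chemokine gene repressed by Irx5 in frog embryos, changed by 0.10 ± 0.18 at the first step (adjusted p = 0.692) and rose by 2.94 ± 0.18 at the second (adjusted p = 0.000347). Cxcl12 is also a gene of marrow stroma.

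Among hedgehog genes, Ihh, the ligand made by prehypertrophic cells, rose by 3.83 ± 0.10 at the first step (adjusted p = 6.55e-05), and its change at the second was 0.08 ± 0.10 (adjusted p = 0.538). Ptch1, the hedgehog receptor and a target of the pathway, fell by 3.40 at the first step on its brighter probe (SE 0.18, adjusted p = 0.000297), while the other probe gave -0.11. Gli3, which acts with Irx3 and Irx5 in the mouse limb bud, changed by 0.05 ± 0.03 at the first step on its brighter probe (adjusted p = 0.248). On that probe it fell by 1.23 at the second (SE 0.03, adjusted p = 5.27e-05). Its other probe gave -1.05 at the first step and 0.29 at the second. Sox9, the master factor of cartilage, fell by 2.70 at the second step (SE 0.04, adjusted p = 3.91e-05), and its 3 probes ran from -2.70 to -0.27, with 1 prehypertrophic spot saturated. On the brightest probes, the larger differences of Irx5 and Ihh lay at the first step, and those of Sox9 and Gli3 at the second. The other Gli3 probe had its larger difference at the first step.

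Among Wnt genes, Axin2, a target and brake of the canonical pathway, rose by 3.20 ± 0.13 at the first step (adjusted p = 0.000144), and its change at the second was -0.01 ± 0.13 (adjusted p = 0.957). Ctnnb1, which encodes beta-catenin, fell by 1.05 and then rose by 1.14 ± 0.03 (adjusted p = 8.55e-05 and 6.2e-05). Lef1, a partner of beta-catenin on DNA, fell by 1.49 and then rose by 3.80 ± 0.13 (adjusted p = 0.00143 and 8.91e-05), but its 3 probes ran from -1.49 to 0.70 and from -0.49 to 3.80. Pparg, the fat cell regulator, did not pass at either step, with -0.03 ± 0.08 and -0.23 ± 0.08 (adjusted p = 0.817 and 0.0636). Sp7, an osteoblast factor, fell by 0.39 and by 0.32 (adjusted p = 0.00595 and 0.00936).

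**Figure D4:**
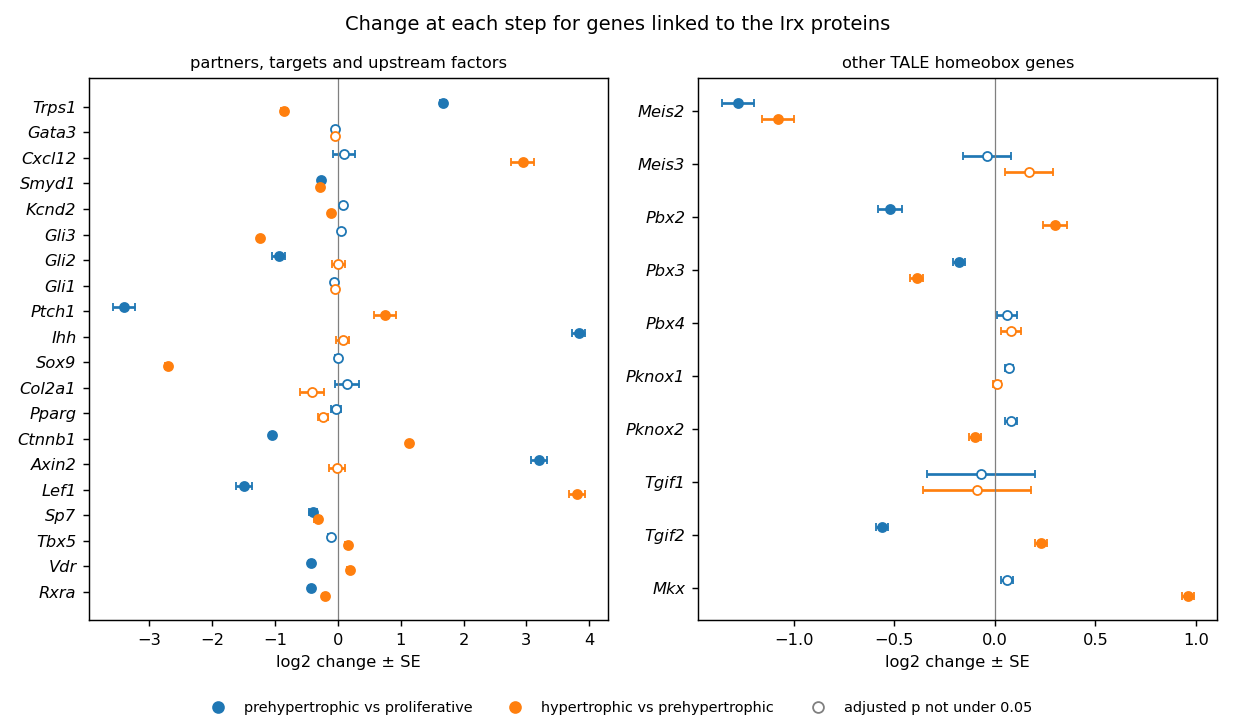
Log2 change with its SE (x axis) in prehypertrophic against proliferative (blue) and hypertrophic against prehypertrophic (orange) for 20 partners, targets and upstream factors (left) and 10 other TALE homeobox genes (right). Open circles did not pass the test. Trps1, Ihh and Axin2 rise at the first step, by 1.67, 3.83 and 3.20, and Meis2 is lower at both.

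At the second step, markers of several other cell types rose, where 28.0% of all features rose and 30.0% fell. All 8 leukocyte and marrow markers rose in hypertrophic against prehypertrophic samples, with a median of 3.14, and their summed linear level, with the 75th percentile of a sample set to 100, was 15100 to 21600 in hypertrophic, against 573 to 1360 in prehypertrophic samples. At that step 4 of 5 erythroid, 6 of 7 endothelial, 5 of 6 osteoclast, 4 of 6 osteoblast and 3 of 5 adipocyte and stromal markers also rose. The other 2 osteoblast markers, Bglap and Sp7, fell, by 0.26 and 0.32 (SE 0.04 and 0.06, adjusted p = 0.00455 and 0.00936). Calcr of the osteoclast list and Tek of the endothelial list fell by 0.22 and 0.13 on their brighter probes (adjusted p = 0.00698 and 0.0430). Their other probes gave 0.41 and 1.41. The endothelial sum was 955 to 1140 in hypertrophic, against 272 to 335 in prehypertrophic samples, and the osteoblast sum was 12800 to 19900, against 3410 to 4220 in prehypertrophic samples. The perichondrium and articular sum was lower, 617 to 666 in hypertrophic, against 1950 to 2370 in prehypertrophic samples, with 2 of 5 markers higher and 1 lower. S100a8 and Camp, neutrophil genes, rose by 4.94 ± 0.14 and 5.11 ± 0.14 (adjusted p = 6.28e-05 and 5.58e-05). Hemgn and Hba-a1, genes of red cells, rose by 4.78 ± 0.07 and 3.71 ± 0.11 (adjusted p = 3.91e-05 and 6.84e-05). Col1a1 and Col1a2, the chains of bone collagen, rose by 3.37 ± 0.05 and 1.79 ± 0.10 on their brightest probes (adjusted p = 6.46e-05 and 0.000298), while the 3 probes of Col1a1 ran from -0.81 to 3.37 and 2 hypertrophic spots of Col1a2 were saturated. Cxcl12, a chemokine of marrow stroma, and Fabp4, a lipid carrier of fat cells, rose by 2.94 ± 0.18 and 2.38 ± 0.11 (adjusted p = 0.000347 and 0.000604). Of the muscle list Acta1, skeletal muscle actin, rose by 0.77 ± 0.19 (adjusted p = 0.0425). Thbs4 of the perichondrium and articular list fell by 2.42 (SE 0.03, adjusted p = 3.91e-05), and Postn rose by 2.11 ± 0.10 (adjusted p = 0.000165) on the brighter probe, against -0.52 on the other. Kdr and Emcn, genes of endothelium, rose by 3.57 ± 0.08 and 3.30 ± 0.11 (adjusted p = 4.44e-05 and 7.27e-05), and Mmp9 and Ctsk, proteases of osteoclasts, by 4.41 ± 0.13 and 3.95 ± 0.18 (adjusted p = 6.76e-05 and 0.000163). The part of these cells in the second-step changes of 2.11 in Irx5 and 1.27 in Irx3 was not tested.

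In prehypertrophic against proliferative samples fewer of these markers passed, 15 of 47, against 38 of 47 in hypertrophic against prehypertrophic samples. Over all features 45.9% passed in the former comparison and 58.1% in the latter. Of the leukocyte and marrow markers 2 of 8 rose, with a sum of 573 to 1360 in prehypertrophic, against 428 to 1150 in proliferative samples. Of the endothelial markers 1 rose and 1 fell of 7, and of the osteoclast markers 1 rose and 2 fell of 6. By limma 0 of 5 erythroid markers passed (at an unadjusted p under 0.05, 1 was higher and 1 lower), and 0 of 5 adipocyte and stromal markers passed (0 at an unadjusted p under 0.05). The osteoblast sum was lower in prehypertrophic samples, 3410 to 4220, against 7670 to 10600 in proliferative samples, with 1 of 6 markers higher and 3 lower, among them Col1a1, which fell by 2.10 on its brightest probe (SE 0.05, adjusted p = 0.000164; its 3 probes ran from -2.10 to 0.11), and Col1a2, which fell by 1.00 (SE 0.10, adjusted p = 0.00220). The osteoblast marker that was higher was Bglap, which rose by 1.14 ± 0.04 (adjusted p = 8.97e-05). Of the perichondrium and articular list 2 of 5 rose, with a sum of 1950 to 2370 in prehypertrophic, against 1460 to 1800 in proliferative samples. Muscle markers, of which 2 of 5 rose, had sums of 168 to 211 in prehypertrophic, against 120 to 167 in proliferative samples. The leukocyte, erythroid, endothelial, osteoclast, and adipocyte and stromal sums of the 2 zones overlapped, and the osteoblast, perichondrium and articular, and muscle sums did not. Their part in the first-step changes of the Irx genes was not tested. In each zone every marker with a named probe was well above background in all 4 samples on at least 1 probe, except Prg4, a gene of articular cartilage, in 1 of 4 prehypertrophic samples, and Aspn, in 2 of 4 samples of each zone.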

How the data were processed

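Per the file headers, the authors' scanner output gives for each spot an intensity, the processed signal of the sample's own channel after background subtraction and dye normalization within the array, and other values, flags of 0 or 1 for saturation, outlying spots and spots well above background (multiplier 2.6). The submitters' processing notes name Agilent Feature Extraction 8.1.1.1. A deposited table of log2 values per probe has column names that do not match the scanner files (1 of 12 columns matched its own file best, 6 a file of the same zone), and it was used as an alternative only.

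Both channels of each spot were combined into a log2 ratio, which was normalized by loess in limma 3.58.1 (R 4.3.3). Ratios with an outlier flag were left out (3845 among the features). A probe was kept where 4 or more of the 12 samples were well above background, and the brightest probe stood for a gene. Zone differences and a dye term were fitted to the 6 ratios with moderated variances (3 residual and 1.22 prior degrees of freedom), and p-values were adjusted over 27173 features by Benjamini-Hochberg at 0.05. The median residual SD was 0.0910. The fit was also run on simulated ratios with known changes. Their errors were independent and had the measured spread, so this run checks the computation only. In prehypertrophic against proliferative, all 4 same-numbered pairs of samples deviated together from their zone means (lowest correlation 0.225, 2 of them on shared arrays). In the other comparisons not all pairs did so. Pairs with different numbers were not compared, so pairing by replicate number was not told apart from array effects. The replicate block is in the alternatives. The members and lists were chosen with earlier results of these data known. Named genes were the 6 members, the 5 genes most like Irx5 and Irx3, list members that passed at 2-fold or more, further members of the TALE, partner and neighbour lists, and in each other list the 2 members with the largest passing change, taken from hypertrophic against prehypertrophic samples (1 passed in the muscle list).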

Additional observations from a re-analysis of the deposited data

Results flagged for a closer look

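The level of Irx5 in prehypertrophic replicate 4 was 0.74, the lowest of its zone, against 0.95, 0.95 and 0.99 in the other 3 prehypertrophic samples. Its gap to the nearest of them was 0.840 of the range of the zone, above Dixon's critical value for 4 samples. It was the only sample set apart in this way among 27 groups of 4 (9 probes in 3 zones), and chance alone sets apart about 1 in 20 such groups. Without the array of this sample (array 6) the Irx5 change was 5.82 in prehypertrophic against proliferative samples and 1.94 in hypertrophic against prehypertrophic samples.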

How the results depend on the processing

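Across 19 alternatives (18 for Irx5, which has no value where a probe must be well above background in all 12 samples), Irx5 changed by 7.28 to 7.76 in hypertrophic against proliferative samples when each array was left out in turn and by 7.57 to 7.67 under the other settings on the scanner files. Background correction by normexp was not run, since the files used hold no mean and background signals. Without the dye term 1 Irx gene other than Irx5 passed in prehypertrophic against proliferative samples and 1 in hypertrophic against prehypertrophic samples, in place of 2 and 2, because both Irx3 calls were lost. With the mean of a gene's probes, 3 in place of 6 TALE genes and 8 in place of 13 partner genes passed in hypertrophic against prehypertrophic samples; Irx1 was then -0.63 in hypertrophic against proliferative samples. The cause was not tested.

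The deposited log2 table, read under its own column names, gave 0 calls in every list and comparison by limma; over all 27241 features 818, 311 and 715 passed at an unadjusted p under 0.05 in the 3 comparisons. Under these names Irx5 was 2.93 in hypertrophic against proliferative samples, and 6 changes had the opposite sign: Irx5 at -0.64, Irx3 at -0.83 and Irx2 at 0.18 in prehypertrophic against proliferative samples, Irx2 at -0.32 in hypertrophic against prehypertrophic samples, and Irx1 at 0.21 and Irx4 at -0.49 in hypertrophic against proliferative samples. Only 1 of its 12 columns matched its own scanner file best.

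Replicate numbers were checked for pairing by the correlation of deviations from the zone means, which ran from -0.249 to 0.575, over 0.1 in 6 of 12 pairs, 4 of which shared an array. In a separate-channel fit with the replicate block, 2 of the 5 other Irx genes passed in prehypertrophic against proliferative samples and 3 in hypertrophic against prehypertrophic samples, where Irx4 also rose, by 0.35 (adjusted p = 0.00331). The block changed no other Irx call. The number of arrays limits the precision, and at the proliferative level of Irx5 the signal was near background.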
